A study of Mus musculus with 30 samples.

Results

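The 7 mouse genes described here make up the core enzymes of DNA methylation turnover: the maintenance pair Dnmt1 and Uhrf1, the de novo methyltransferases Dnmt3a and Dnmt3b, and the dioxygenases Tet1, Tet2 and Tet3. They were taken by symbol from a table of 48820 genes, and all 7 of 7 were found and kept by the filter on low counts. RNA was sequenced from hearts of WT mice, untreated at every age, after capture with oligo-dT beads. The 10 ages ran through gestation from embryonic day 10.5 (E10.5) to E18.5 in steps of 2 days, then postnatal day 1 (P1) and the ages of 1 week (1W), 2W, 4W and 8W. Each age has 3 libraries, which makes 30. The labels name no strain and do not state if the replicates are separate animals or pools, so every p-value measures only the spread between these samples.

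Cytosine methylation at CpG sites is copied onto the new strand after replication by Dnmt1, which Uhrf1 guides to hemimethylated DNA. Dnmt3a and Dnmt3b place methyl groups on unmethylated sites, and the Tet enzymes oxidise 5-methylcytosine to 5-hydroxymethylcytosine and further products. In heart muscle cells of the mouse, proliferation ends soon after birth, and methylation is remodelled as the tissue matures.

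The maintenance pair and the Tet genes followed different courses. Dnmt1 and Uhrf1 were highest at E12.5, fell steeply at P1, were higher again at 1W, and reached their lowest means at 8W. Transcripts of the Tet genes were at their highest between P1 and 2W and fell by 8W. Dnmt3a varied least of the 7, and Dnmt3b was highest at E10.5. The lowest mean of every one of the 7 genes was that of 8W, and the highest mean exceeded it 47.2-fold for Uhrf1, 8.24-fold for Dnmt3b, 5.03-fold for Dnmt1, 4.47-fold for Tet1, 2.55-fold for Tet3, 2.14-fold for Tet2 and 1.77-fold for Dnmt3a. In bulk tissue, fewer cells of a type and less RNA per cell cannot be told apart.

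**Figure D1:**
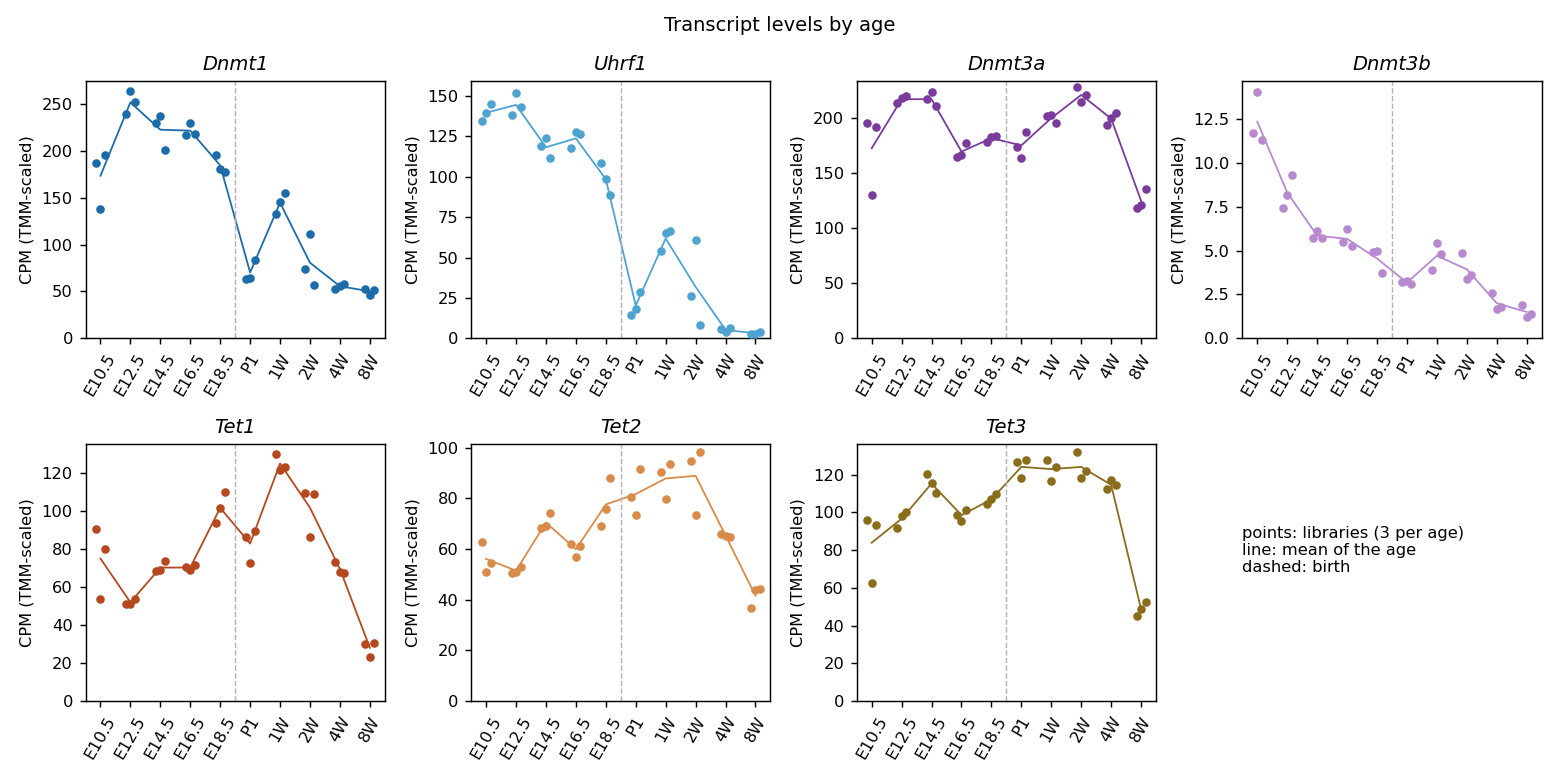
Level of each gene (y axis, CPM scaled by TMM factors, linear from 0) at the 10 ages (x axis), with points for the 3 libraries of an age, lines through their means and a dashed line at birth. Dnmt1 and Uhrf1 drop between E18.5 and P1 and stand higher again at 1W, while Tet1, Tet2 and Tet3 reach their highest means between P1 and 2W and their lowest at 8W.

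Levels are library-scaled counts (CPM) with TMM factors, which equalise libraries on their least changed genes. Library totals were between 23164941 and 50519457 counts, and the lowest count of any of the 7 genes in a library was 32, for Dnmt3b at 8W. Mitochondrially encoded genes held from 2.74% to 6.93% of the counts of a library up to P1 and from 18.9% to 19.2% at 8W. Replicate 2 of E10.5 had 32231 CPM of the small nuclear RNA Rn7sk, against 5666.5 and 6112.9 CPM in the other E10.5 libraries. All 3 libraries of E10.5, replicates 1 and 2 of E12.5 and replicates 1 and 3 of E14.5 held both Xist and Y transcripts, as pooled embryos of both sexes would. Every library from E16.5 on held only Xist or only Y transcripts, and both kinds of library entered the same fit. All 3 P1 libraries held transcripts of the Y chromosome without Xist, and all 3 libraries of 4W and of 8W held Xist without Y transcripts, so sex and age cannot be told apart within these ages. Cardiomyocyte markers, the check on the labelled tissue, summed to 33220 ± 9042 CPM at E10.5, 26473 ± 332 CPM at E12.5 and 235111 ± 10816 CPM at 8W (10 genes, SD, n = 3 each).

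The step into P1 was the steepest for Dnmt1 between neighbouring ages. Dnmt1 (ENSMUSG00000004099, chr9:20907209-20959888, minus strand, GRCm38) is a protein-coding gene of 7377 exonic bases in the merged annotation. It stood at 187, 138 and 196 CPM at E10.5, at 239.6, 264 and 253 CPM at E12.5, and at 230.0, 237 and 202 CPM at E14.5. At E16.5 it had 217, 230.0 and 219 CPM and at E18.5 196, 181 and 178 CPM. The 3 E12.5 libraries lay above those of every other age, and replicate 2 of E10.5 was the lowest library before birth.

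After birth Dnmt1 had 63.2, 64.5 and 83.3 CPM at P1, 133, 146 and 156 CPM at 1W, and 73.8, 111 and 57.3 CPM at 2W. It was lower still at 4W, with 53.0, 55.6 and 58.3 CPM, and at 8W, with 52.7, 46.6 and 51.2 CPM. The P1 libraries did not overlap those of either neighbouring age. The 2W libraries spread more widely than any other postnatal group of Dnmt1.

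Dnmt1 rose in E12.5 against E10.5, by 0.54 ± 0.15 on the log2 scale (SE, adjusted p = 0.0043, edgeR quasi-likelihood test with Benjamini-Hochberg adjustment over 19280 genes). Without the E10.5 library rich in Rn7sk the rise was 0.40 (adjusted p = 0.046). The next 3 steps before birth did not pass the test, with log2 changes of -0.18, -0.01 and -0.26. In P1 against E18.5 the log2 change was -1.39 ± 0.16 (adjusted p = 1.2e-07, edgeR). In 1W against P1 it was 1.04 ± 0.16 (adjusted p = 9.2e-06, edgeR). Both steps kept their call when any single library was left out, with ranges from -1.55 to -1.32 and from 0.97 to 1.20.

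Uhrf1 fell in P1 against E18.5 and rose in 1W against P1, as Dnmt1 did, and did not pass the test in E12.5 against E10.5 (0.05 ± 0.36, adjusted p = 0.92). Uhrf1 (ENSMUSG00000001228, chr17:56303321-56323486, plus strand, GRCm38) encodes the ubiquitin ligase that reads hemimethylated CpG and brings Dnmt1 to it. Its levels were 135, 139 and 145 CPM at E10.5, 139, 152 and 143 CPM at E12.5, and 119, 124 and 112 CPM at E14.5. It then had 118, 127 and 126 CPM at E16.5 and 108, 98.7 and 88.6 CPM at E18.5. No step before birth passed the test for Uhrf1 in the fit of all 30 libraries, and its changes there lay between -0.33 and 0.07 on the log2 scale. All its E14.5 libraries were nonetheless below all its E12.5 libraries. With only the 6 libraries of these 2 ages in the fit, 6 of the 7 genes were called, against 3 with all libraries.

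At P1 Uhrf1 had 14.3, 17.8 and 28.6 CPM, at 1W 53.9, 65.2 and 66.2 CPM, and at 2W 26.4, 61.0 and 8.12 CPM. By 4W it stood at 5.60, 3.75 and 6.28 CPM, and at 8W at 2.64, 2.72 and 3.83 CPM. Every P1 library was below every library of E18.5 and of 1W, and every 4W library was below every 2W library. The log2 change was -2.28 ± 0.39 in P1 against E18.5 (adjusted p = 7.9e-05) and 1.61 ± 0.38 in 1W against P1 (adjusted p = 0.0024, edgeR). Leaving out any single library gave -2.63 to -2.08 and 1.41 to 1.96. With a term for the sex of the library, Dnmt1 and Uhrf1 changed by -1.38 and -2.29 in P1 against E18.5 and by 1.03 and 1.62 in 1W against P1.

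Values at 2W depended on single libraries. Dnmt1 fell by 0.84 ± 0.16 in 2W against 1W (adjusted p = 0.00017, edgeR), and by 0.65 without replicate 3 of 2W or 1.15 without its replicate 2. With only the 6 libraries of these ages in the fit, its adjusted p was 0.057. Uhrf1 changed by -0.95 ± 0.38 in that step and did not pass the test (adjusted p = 0.062), but without replicate 2 of 2W it changed by -1.84 (adjusted p = 0.00018) and without replicate 3 by -0.50.

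In 4W against 2W, Uhrf1 fell by 2.63 ± 0.44 (adjusted p = 0.00011, edgeR) and Dnmt1 by 0.54 ± 0.16 (adjusted p = 0.011, edgeR). Without replicate 2 of 2W the fall of Uhrf1 was 1.75, and that of Dnmt1 was 0.24 and no longer called (adjusted p = 0.16). With only the 6 libraries of these ages, neither passed (adjusted p = 0.087 for Uhrf1 and 0.13 for Dnmt1). Across the 2W libraries, the sum of 25 genes of S phase was 495, 786 and 259 CPM, in the same order as Uhrf1 and Dnmt1, and the mitochondrially encoded share was 15.2%, 13.6% and 16.8%. The part of either in the spread of Uhrf1 was not tested.

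In 8W against 4W neither gene passed the test, with -0.15 ± 0.16 for Dnmt1 and -0.74 ± 0.53 for Uhrf1. Over 8W against P1, Dnmt1 fell by 0.49 ± 0.16 (adjusted p = 0.0083, edgeR), a call lost without replicate 3 of P1 (-0.34, adjusted p = 0.08). Uhrf1 fell by 2.72 ± 0.48 over the same span. Over 8W against E10.5 the changes were -1.79 ± 0.16 for Dnmt1 and -5.51 ± 0.48 for Uhrf1, and both were called without any single library.

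The ratio of Dnmt1 to Uhrf1 within a library does not depend on scaling between libraries. On the log2 scale, and by counts, it was 0.30 ± 0.27 at E10.5 and stayed between 0.80 and 0.91 from E12.5 to E18.5. After birth the P1 libraries averaged 1.85 ± 0.30, those of 1W 1.23 ± 0.07, those of 2W 1.72 ± 1.00, those of 4W 3.45 ± 0.38 and those of 8W 4.05 ± 0.29 (SD, n = 3 each). The P1 libraries had 2.14, 1.86 and 1.54, all above the E18.5 libraries with 0.85, 0.87 and 1.01. At 2W the libraries had 1.49, 0.86 and 2.82, a range wider than at any other age. The ratio differed across the ages in a permutation test of the F ratio (p = 1e-05, the smallest that 100000 resamples can give, adjusted p = 2e-05 over the 5 within-library values tested).

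Divided by merged exon length, Uhrf1 stood above Dnmt1 at E10.5, with 32.8 ± 1.20 CPM per exon kilobase for Uhrf1 and 23.6 ± 4.23 for Dnmt1. From E12.5 to E18.5 the log2 ratio of Dnmt1 to Uhrf1 on this scale was between 0.01 and 0.12. Dnmt1 had 25.1 ± 1.30 and Uhrf1 23.1 ± 2.31 CPM per exon kilobase at E18.5. At 8W the levels were 6.80 ± 0.43 CPM per exon kilobase for Dnmt1 and 0.719 ± 0.16 for Uhrf1.

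Both genes are known as genes of S phase, and they were therefore set against a list of 25 replication genes (such as Mcm2 to Mcm7, the helicase subunits, and Pcna, the sliding clamp). Of the list, 25 of 25 genes fell in P1 against E18.5, as did 19% of all genes. The median log2 change of the list was -1.68, against -0.01 for all genes. In 1W against P1, where 18.8% of all genes rose, 23 rose (median 1.12, all genes -0.01). In 4W against 2W, where 13% of all genes fell, 25 fell (median -1.42, all genes 0.00), or 12 with only the 6 libraries of these ages. Of 15 genes of G2 and M phase, 15 fell in P1 against E18.5 (median -1.84). In 1W against P1, 10 rose (median 0.89), or 5 without replicate 1 of P1, without replicate 3 of 1W or with the term for sex. Relative to the mean log2 CPM of the list, Dnmt1 stood at 1.47 ± 0.35 at E10.5, at 2.22 to 2.35 from E12.5 to E18.5, and at 2.62 ± 0.14 at P1. It was 2.55 at 1W and 3.55 ± 0.03 at 8W. Uhrf1 stood at 1.17 ± 0.08 in E10.5 hearts and 1.42 ± 0.08 in E18.5 hearts. It had 0.78 ± 0.16 in P1, 1.32 ± 0.07 in 1W and 0.13 ± 0.44 in 4W hearts. At 8W it was -0.47 ± 0.27. Relative to these genes Dnmt1 thus stood higher, and Uhrf1 lower, at 8W than at E18.5. These differences are descriptions with no test.

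**Figure D2:**
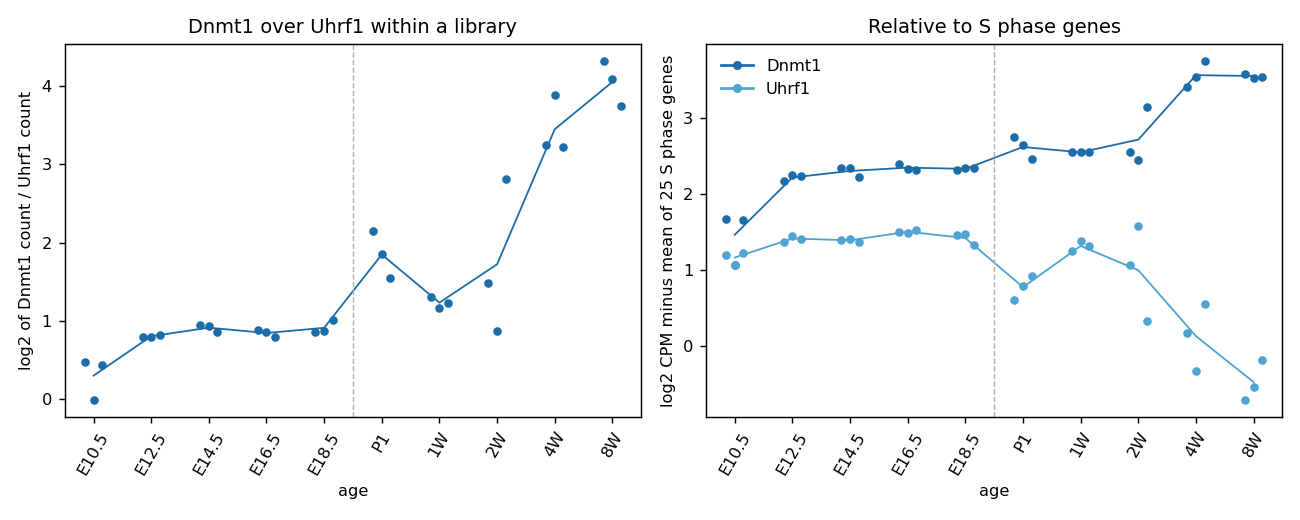
Left, log2 of the Dnmt1 count over the Uhrf1 count in each library (points, 3 per age) with the mean per age (line). Right, log2 CPM of Dnmt1 and of Uhrf1 minus the mean log2 CPM of 25 S phase genes. The ratio is 0.80 to 0.91 from E12.5 to E18.5 and 4.05 at 8W, and the lines of the right panel move apart after birth.

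The RefSeq promoter windows of the 7 genes, from 250 bases before to 50 bases after a start, were searched on both strands for the E2F letters TTTCCCGC, TTTCGCGC, TTTGCCGC and TTTGGCGC. E2F factors are known as regulators of many S phase genes, and the stretches around the matches are shown so that the letters found can be read in place. Dnmt3b, which also fell at P1, rose at 1W and fell at 4W against the age before, held no such letters. Its calls at P1 and 1W were lost with the term for sex. A part of E2F factors in the changes of any of these genes was not tested. Matches were found in 1 of 3 windows of Dnmt1 and 1 of 2 of Uhrf1, and in none of the windows of the other 5 genes. Among all 32851 windows, 744 (2.3%) held such letters. The Dnmt1 stretches are from chr9:20952824-20952853 and chr9:20952574-20952603, both on the minus strand and both within annotated exons. The Uhrf1 stretch is the 250 bases before the start, chr17:56304063-56304312 on the plus strand, in no annotated exon. Sequences are those of RefSeq on GRCm38.p6, 5′ to 3′, and the capitals mark the E2F letters or their reverse complement.

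Dnmt1, 230 to 201 bases before the start: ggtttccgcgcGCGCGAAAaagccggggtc

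Dnmt1, 20 to 49 bases after the start: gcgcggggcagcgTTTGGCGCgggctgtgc

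Uhrf1, 250 bases before the start: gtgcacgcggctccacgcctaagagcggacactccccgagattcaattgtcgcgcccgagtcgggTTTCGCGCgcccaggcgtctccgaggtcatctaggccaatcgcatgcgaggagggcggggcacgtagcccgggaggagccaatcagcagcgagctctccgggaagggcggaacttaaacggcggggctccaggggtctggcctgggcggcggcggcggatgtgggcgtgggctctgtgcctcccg

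The Uhrf1 match starts 185 bases before the start, and that window also held GGGCGG, the GC box, at 3 places and CCAAT at 2. Among all windows, 35.7% held GGGCGG and 37.4% held CCAAT. A match is a description of letters, not of binding, and counts per gene do not say which start was used. CpG dinucleotides numbered 33 in each of these windows, against a median of 7 over all windows. The window of Tet2 held 57, more than 99.8% of windows.

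Dnmt3a was the steadiest of the 7 genes. Dnmt3a (ENSMUSG00000020661, chr12:3806007-3914443, plus strand, GRCm38) shares 133 exonic bases with its antisense gene Dnmt3aos, which had 20 counts at most in a library, while Dnmt3a had at least 2566. The libraries had 196, 130 and 192 CPM at E10.5, 213, 218 and 220.0 CPM at E12.5, and 217, 223 and 210.5 CPM at E14.5. They had 165, 167 and 177 CPM at E16.5 and 178, 183 and 184 CPM at E18.5. Apart from replicate 2 of E10.5, the prenatal libraries lay within 165 to 223 CPM.

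After birth Dnmt3a had 174, 164 and 188 CPM at P1, 201, 203 and 195 CPM at 1W, and 228, 214 and 220.5 CPM at 2W. It had 194, 200.1 and 205 CPM at 4W and 119, 121 and 135 CPM at 8W. The 8W libraries were below all others except replicate 2 of E10.5, which lay among them. In P1 against E18.5, where Dnmt1 and Uhrf1 fell, Dnmt3a changed by -0.05 ± 0.09 and did not pass the test (adjusted p = 0.7, edgeR).

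Dnmt3a rose by 0.33 ± 0.09 in E12.5 against E10.5 (adjusted p = 0.003), fell by 0.36 ± 0.09 in E16.5 against E14.5 (adjusted p = 0.0042) and fell by 0.68 ± 0.09 in 8W against 4W (adjusted p = 3.7e-06, edgeR). The earliest of these was 0.17 without replicate 2 of E10.5 (adjusted p = 0.032) and was not called with only its 6 libraries (adjusted p = 0.14). No other step between neighbouring ages passed for Dnmt3a.

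Dnmt3b was the lowest of the 7 genes per exon kilobase at every age. Dnmt3b (ENSMUSG00000027478, chr2:153649450-153687730, plus strand, GRCm38), the de novo enzyme best known from the early embryo, had 11.7, 14.04 and 11.3 CPM at E10.5, 7.44, 8.18 and 9.33 CPM at E12.5 and 5.74, 6.09 and 5.73 CPM at E14.5. Its means were 5.67 ± 0.52 CPM at E16.5, 4.55 ± 0.69 CPM at E18.5, 3.17 ± 0.08 CPM at P1 and 4.71 ± 0.79 CPM at 1W. At 2W, 4W and 8W they were 3.94 ± 0.80, 2.00 ± 0.49 and 1.501 ± 0.35 CPM. Only the E10.5 libraries exceeded 10 CPM.

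The fall of Dnmt3b in E12.5 against E10.5 was 0.57 ± 0.16 (adjusted p = 0.0025, edgeR), and in E18.5 against E10.5 it was 1.44 ± 0.16 (adjusted p = 2.9e-09). In 4W against 2W it fell by 0.98 ± 0.19 (adjusted p = 0.00017) and in 8W against E10.5 by 3.05 ± 0.19. Its other calls were less secure. In E14.5 against E12.5 (-0.51 ± 0.16, adjusted p = 0.024), the call was lost without any one of replicates 2 and 3 of E12.5 or 1 and 3 of E14.5, and with the term for sex (-0.43, adjusted p = 0.061). In P1 against E18.5 (-0.52 ± 0.17, adjusted p = 0.018), it was lost without replicate 1 or 2 of E18.5 (adjusted p = 0.067 and 0.081) and with the term for sex (-0.39, adjusted p = 0.1). In 1W against P1 (0.57 ± 0.17, adjusted p = 0.0098), it was lost without replicate 2 of 1W (adjusted p = 0.064) and with the term for sex (0.42, adjusted p = 0.086).

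Of the summed counts of Dnmt3a and Dnmt3b, Dnmt3a held 93.0% ± 2.39 in E10.5 libraries, 96.3% ± 0.35 in those of E12.5 and 97.6% ± 0.39 in those of E18.5. After birth it held 98.2% ± 0.16 in P1, 99.0% ± 0.27 in 4W and 98.8% ± 0.33 in 8W libraries (SD, n = 3 each). Replicate 2 of E10.5 was the lowest library, with 90.2% against 94.4% in both others. Per exon kilobase the share of Dnmt3a was 80.5% ± 5.67 at E10.5 and 96.2% ± 1.01 at 8W. The share differed across ages (permutation p = 1e-05, the smallest possible, adjusted p = 2e-05). Without any single library the p was again 1e-05.

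Tet1 showed the widest swings among the Tet genes. Tet1 (ENSMUSG00000047146, chr10:62804570-62908996, minus strand, GRCm38), which carries a CXXC domain that binds CpG-rich DNA, had 90.6, 53.9 and 80.1 CPM at E10.5, 51.2, 50.9 and 53.5 CPM at E12.5 and 68.2, 68.8 and 73.4 CPM at E14.5. It had 70.4, 68.7 and 71.4 CPM at E16.5 and 93.7, 101 and 109.6 CPM at E18.5. The E18.5 libraries were above every other prenatal library of Tet1, and replicate 2 of E10.5 was level with E12.5.

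After birth Tet1 had 86.4, 72.4 and 89.6 CPM at P1, 129.9, 122 and 123 CPM at 1W, and 109.6, 86.2 and 109 CPM at 2W. It was lower at 4W, with 73.2, 67.7 and 67.4 CPM, and at 8W, with 30.2, 23.1 and 30.6 CPM. The 1W libraries were above all others, and the 8W libraries below all others. Tet1 fell by 0.53 ± 0.12 in E12.5 against E10.5 (adjusted p = 0.00068), or by 0.71 without replicate 2 of E10.5. It rose by 0.44 ± 0.12 in E14.5 against E12.5 (adjusted p = 0.014), a call lost without replicate 2 of E12.5 (adjusted p = 0.057) or replicate 3 of E14.5 (adjusted p = 0.064).

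The later rises of Tet1 were 0.53 ± 0.12 in E18.5 against E16.5 (adjusted p = 0.0022) and 0.59 ± 0.12 in 1W against P1 (adjusted p = 0.00041, edgeR). In P1 against E18.5, between them, it changed by -0.29 ± 0.12 and did not pass the test (adjusted p = 0.061), but passed without replicate 2 of E10.5 (-0.30, adjusted p = 0.0077) and without any one of replicate 1 of E10.5, 3 of P1, 2 of 2W and 2 of 8W. In 2W against 1W it changed by -0.30 ± 0.12 and likewise missed the threshold (adjusted p = 0.071), passing without replicate 1 or 2 of E10.5 or 2 of 8W. It fell by 0.55 ± 0.13 in 4W against 2W (adjusted p = 0.0013) and by 1.31 ± 0.13 in 8W against 4W (adjusted p = 3.3e-08).

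Tet2, which lacks a CXXC domain of its own, moved within a narrower range. Tet2 (ENSMUSG00000040943, chr3:133463679-133545139, minus strand, GRCm38) shares 43 exonic bases with the antisense gene model Gm42567, which had 0 counts throughout. Its means were 56.1 ± 6.17 CPM at E10.5, 51.4 ± 1.25 CPM at E12.5, 70.4 ± 3.12 CPM at E14.5, 59.9 ± 2.80 CPM at E16.5 and 77.5 ± 9.53 CPM at E18.5. After birth they were 81.7 ± 9.18 CPM at P1, 87.8 ± 7.29 CPM at 1W, 88.9 ± 13.5 CPM at 2W, 65.3 ± 0.49 CPM at 4W and 41.5 ± 4.13 CPM at 8W. From E18.5 to 2W the libraries of neighbouring ages overlapped, and those of 8W lay below all others, at 36.8, 43.7 and 44.1 CPM.

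Tet2 rose in E14.5 against E12.5 (0.45 ± 0.10, adjusted p = 0.0015) and in E18.5 against E16.5 (0.37 ± 0.10, adjusted p = 0.0063, edgeR), where the call was lost without replicate 3 of E18.5 (0.27, adjusted p = 0.081). It fell in 4W against 2W (-0.44 ± 0.10, adjusted p = 0.001) and in 8W against 4W (-0.65 ± 0.10, adjusted p = 2.4e-05).

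Tet3 held a plateau after birth. Tet3 (ENSMUSG00000034832, chr6:83362373-83459084, minus strand, GRCm38), the Tet enzyme known from the zygote for oxidising the paternal genome, had 95.9, 62.6 and 93.2 CPM at E10.5. Its means were 96.6 ± 4.65 CPM at E12.5, 115 ± 4.97 CPM at E14.5, 98.5 ± 2.94 CPM at E16.5 and 107 ± 2.65 CPM at E18.5. They were 124 ± 5.21 CPM at P1, 123 ± 5.80 CPM at 1W, 124 ± 7.11 CPM at 2W and 115 ± 2.27 CPM at 4W. At 8W the libraries had 45.0, 48.6 and 52.5 CPM, against 112, 117 and 114 CPM at 4W. All 8W libraries were below all 4W libraries.

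The fall in 8W against 4W, of 1.23 ± 0.10, was the only step between neighbouring ages in which Tet3 passed the test (adjusted p = 1e-10, edgeR). In E12.5 against E10.5 (0.20, adjusted p = 0.069), E14.5 against E12.5 (0.25, adjusted p = 0.059), E16.5 against E14.5 (-0.23, adjusted p = 0.078) and P1 against E18.5 (0.22, adjusted p = 0.071) it missed the threshold but passed when certain libraries were left out. Those were replicate 1 or 3 of E10.5 in the earliest of these steps, any replicate of E10.5 or replicate 2 of 2W in the next, and replicate 2 of E10.5 in the other two.

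The Tet genes changed in their shares of the summed Tet counts. Tet1 held 34.6% ± 2.12 in E10.5 libraries, 25.9% ± 0.53 in those of E12.5 and 35.5% ± 0.34 in those of E18.5. After birth its share was 28.6% ± 1.06 in P1, 37.2% ± 1.09 in 1W, 27.8% ± 1.11 in 4W and 23.7% ± 3.48 in 8W libraries (SD, n = 3 each). At P1 the libraries had 29.5%, 27.4% and 29.0%, below all E18.5 libraries with 35.1%, 35.7% and 35.7% and below all 1W libraries with 37.3%, 38.3% and 36.1%. Tet2 stayed between 25.7% and 28.3% from E10.5 to 4W and held 35.1% ± 2.53 at 8W. Tet3 held 48.3% ± 0.85 in E12.5, 36.6% ± 0.14 in 1W, 46.0% ± 1.11 in 4W and 41.2% ± 0.96 in 8W libraries. Tet3 thus held its highest shares at E12.5 and 4W, where Tet1 was low. Permutation tests across the ages gave p = 2e-05 for Tet1, 0.00099 for Tet2 and 1e-05 for Tet3 (adjusted p = 2.5e-05, 0.00099 and 2e-05).

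**Figure D3:**
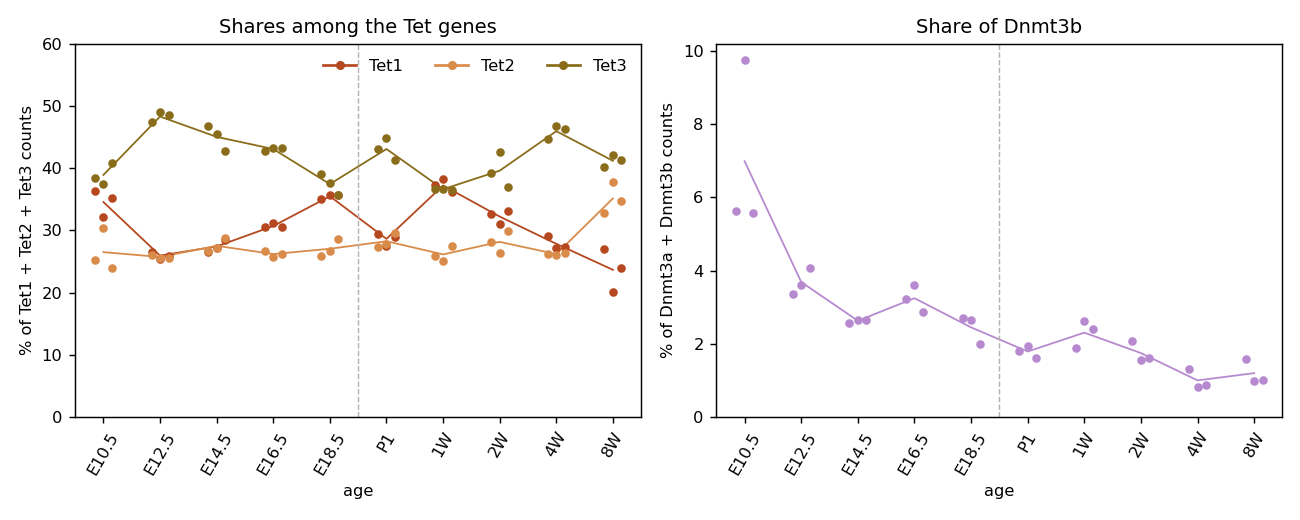
Left, share of each Tet gene in the summed Tet1, Tet2 and Tet3 counts of a library (%, y axis) by age. Right, share of Dnmt3b in the summed Dnmt3a and Dnmt3b counts (%). Points are libraries, 3 per age, and lines their means. Tet1 is at 28.6% at P1 between 35.5% at E18.5 and 37.2% at 1W, and the share of Dnmt3b is highest at E10.5.

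Per exon kilobase, the summed Tet level was 13.2 ± 2.64 CPM at E10.5, 17.6 ± 1.24 CPM at E18.5, 20.6 ± 0.96 CPM at 1W and 7.19 ± 0.48 CPM at 8W. The summed level of Dnmt1, Dnmt3a and Dnmt3b on the same scale was 36.3 ± 6.13 CPM at E10.5, 48.9 ± 1.92 CPM at E12.5, 20.7 ± 2.16 CPM at P1, 32.6 ± 1.501 CPM at 1W and 14.6 ± 0.77 CPM at 8W. At P1 the Dnmt sum was at its lowest before 4W, while the Tet sum at P1, 17.6 ± 1.41 CPM, differed from that at E18.5 by less than the SD.

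Across the 10 ages, 7 of 7 genes were called by the edgeR test, as were 93.6% of all genes tested. In E12.5 against E10.5, 2 of 7 rose (31% of all genes rose) and 2 fell (24.4%), 4 in all (55.4%). In E14.5 against E12.5, 2 rose (10.5%) and 1 fell (7.8%), 3 in all (18.3%). In E16.5 against E14.5, 1 fell and none rose (12% and 14.1%, 26% in all). In E18.5 against E16.5, 2 rose and none fell (13% and 11.2%, 24.2% in all). The P1 step against E18.5 had 3 falls and no rise among the 7 (19% and 19.8%, 38.8% in all). The 1W step against P1 had 4 rises and no fall (18.8% and 17%, 35.8% in all). The 2W step against 1W had 1 fall (14.1% fell and 15.5% rose, 29.6% in all). The 4W step against 2W had 5 falls (13% fell and 15.8% rose, 28.9% in all), and the 8W step against 4W had 4 (12.1% fell and 11.8% rose, 23.9% in all). The share of the 7 genes called was near that of all genes in E12.5 against E10.5 (57.1%), in E18.5 against E16.5 (28.6%) and in P1 against E18.5 (42.9%), so these counts are not results about the 7 genes. Calls of 1 step were all in 1 direction after birth, and also in E16.5 against E14.5 and in E18.5 against E16.5. Both E16.5 against E14.5 and 2W against 1W had only 1 call. Single libraries moved several counts by more than 1.5 times. Without replicate 2 of E12.5 or 3 of E14.5, 1 gene was called in E14.5 against E12.5, and without replicate 2 of E10.5 or of 2W, 2 were called in E16.5 against E14.5. Without replicate 3 of E18.5, 1 was called in E18.5 against E16.5, and without replicate 2 of E10.5, 5 were called in P1 against E18.5. In 2W against 1W, 2 were called without any one of replicate 1 or 2 of E10.5, 2 of 2W and 2 of 8W.

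Over E18.5 against E10.5, 3 of 7 genes rose (32.9% of all genes rose) and 1 fell (30.4%), 4 in all (63.3%). Tet1 rose by 0.44 ± 0.12 (adjusted p = 0.0029), Tet2 by 0.47 ± 0.10 (adjusted p = 0.00014) and Tet3 by 0.35 ± 0.10 (adjusted p = 0.0019), and Dnmt3b fell. Without replicate 2 of E10.5 the rises were 0.25, 0.41 and 0.18 for Tet1, Tet2 and Tet3 and all passed. With library size alone as the scaling, which shifts the median of all genes by -0.16, they were 0.26, 0.30 and 0.17, and those of Tet1 and Tet3 did not pass (adjusted p = 0.12 and 0.19).

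Over 8W against P1, 7 of 7 genes fell, as did 35.1% of all genes (31.8% rose, 66.8% in either direction). Over 8W against E10.5, 7 of 7 fell, as did 42.1% of all genes (37.8% rose, 79.9% in either direction). With TMM, 6123 genes rose and 6763 fell in 8W against P1, and with library size alone, which moves the median log2 change by -0.77, 2225 rose and 12577 fell. In 8W against E10.5 these numbers were 7294 and 8110 with TMM and 3895 and 12625 with library size alone, a shift of -1.04. The falls of the Tet genes in 8W against P1 were 1.57 ± 0.13 for Tet1, 0.97 ± 0.10 for Tet2 and 1.35 ± 0.10 for Tet3. Against E10.5 they were 1.42 ± 0.13, 0.43 ± 0.10 and 0.78 ± 0.10. All 7 genes fell in both spans with library size alone too, but that scaling moves all genes downward here, so it is no check on the falls. With the term for sex, the falls in 8W against P1 were 1.59 for Tet1, 0.99 for Tet2 and 1.35 for Tet3. All P1 libraries held only Y transcripts and all 8W libraries only Xist. The term thus rests on the other ages and cannot separate sex from age in this span.

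**Figure D4:**
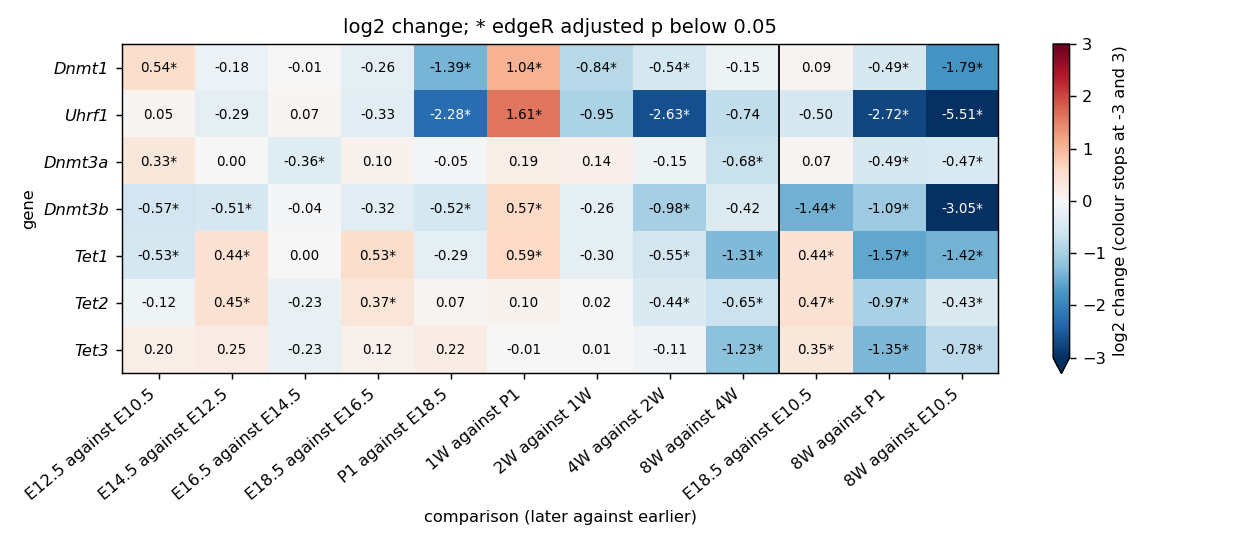
Log2 change of each gene (rows) in each comparison (columns, later against earlier age), with the value in the cell, red for higher and blue for lower in the later age, and a star where the edgeR adjusted p is below 0.05. The columns right of the line are the long spans. Dnmt1 and Uhrf1 are blue at P1 against E18.5 and red at 1W against P1, and the Tet genes are blue at 8W against 4W.

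Levels of some cell type markers moved in several of these steps and others did not, and their part in the results was not tested. Over all genes, 12.1% fell and 11.8% rose in 8W against 4W, and 13% fell and 15.8% rose in 4W against 2W. In 1W against P1 17% fell and 18.8% rose, and in P1 against E18.5 19% fell and 19.8% rose. In E12.5 against E10.5 24.4% fell and 31% rose. In 8W against 4W, where all 3 Tet genes and Dnmt3a fell, 8 of 9 endothelial markers fell (sum 1519 to 1549 CPM at 8W, against 1882 to 1989 CPM at 4W), as did 6 of 9 fibroblast markers (2750 to 3062 CPM at 8W, against 5316 to 5534 CPM at 4W). Col3a1, the largest part of the fibroblast sum, averaged 1021 CPM at 8W and 2607 CPM at 4W. The fibroblast markers Pdgfra, Dcn and Dpt did not pass the test (log2 changes -0.06, 0.05 and -0.10, edgeR). Of the cardiomyocyte markers 4 of 10 rose, with sums of 222631 to 241775 CPM at 8W, against 225059 to 244106 CPM at 4W. Of 8 mural markers 3 fell and 1 rose, of 7 epicardial markers 4 fell, of 11 erythroid markers 7 fell, and of 9 macrophage markers 1 rose and 1 fell. In 4W against 2W, where 5 of the 7 genes fell, 7 of 9 fibroblast markers fell (5316 to 5534 CPM at 4W, against 9373 to 11639 CPM at 2W), as did 2 of 9 endothelial markers, and 9 of 9 macrophage markers rose (505 to 550.0 CPM at 4W, against 285 to 333 CPM at 2W). In 1W against P1, 7 of 9 fibroblast and 5 of 9 endothelial markers rose and 1 endothelial marker, Emcn, fell (-0.42 ± 0.10), with fibroblast sums of 12255 to 12578 CPM at 1W, against 6920 to 9266 CPM at P1. In P1 against E18.5, where Dnmt1 and Uhrf1 fell, 1 of 9 fibroblast markers rose, and the sums were 6920 to 9266 CPM at P1, against 7546 to 7956 CPM at E18.5. In E12.5 against E10.5, 9 of 9 fibroblast markers rose, and Dpt was at 0 in at least 1 library of E10.5.

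The genes with the profiles most like each of the 7 were found by the root mean square difference of centred log2 age means over the 10 ages, among 10673 genes. Nearest to Dnmt1 were Ncapd2, a condensin subunit (0.136), Hirip3 (0.144) and Pycr1, a proline synthesis enzyme (0.164). Nearest to Uhrf1 were Mybl2, a transcription factor of the cell cycle (0.182), Ccnf, cyclin F (0.186), and the histone gene Hist1h2af (0.192), which has near-identical copies. For Dnmt3a they were Tgfb1 (0.11), Fhod1 (0.121) and Rab4b (0.13), and for Dnmt3b Zfp354c (0.204), Msantd2 (0.212) and Mbd4, a glycosylase that reads methylated CpG (0.217). Tet1 was nearest to Cdk6 (0.198), Fam198b (0.248) and Zbtb34 (0.275), and Tet2 to Ebf1 (0.132), She (0.135) and Arhgap32 (0.148). Tet3 was nearest to Kctd3 (0.165), Elk3 (0.182) and Tet2 (0.186), the only pair within the 7 that ranked among the closest 3. The median difference over all genes was between 0.489, for Dnmt3a, and 2.02, for Uhrf1. Within the 7, Dnmt1 was nearer to Dnmt3b (0.467) than to Uhrf1 (1.15). The measure counts the size of changes as well as their course, and Uhrf1 varied 47.2-fold between its age means. Of the 7, Dnmt1 was nonetheless the nearest to Uhrf1.

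Partners of the maintenance and de novo enzymes changed in both directions. Of 12 such genes, 10 were tested. In P1 against E18.5, 4 fell and 3 rose (median -0.21, all genes -0.01), where 19% of all genes fell and 19.8% rose. The falls were those of Hells, a chromatin remodeller required for methylation (-2.24 ± 0.25), its activator Cdca7 (-1.96 ± 0.17), the paralog Cdca7l (-1.85 ± 0.18) and Uhrf2, the paralog of Uhrf1 (-0.72 ± 0.08). In 1W against P1, where 18.8% of all genes rose, 3 rose, namely Hells (1.44 ± 0.25), Cdca7 (1.43 ± 0.17) and Cdca7l (0.99 ± 0.18). The median of the list was 0.01, against -0.01 for all genes. Over 8W against E10.5, 7 fell and 2 rose (median -1.46, all genes -0.15), where 42.1% of all genes fell and 37.8% rose. The changes were -6.44 ± 0.32 for Hells, -5.66 ± 0.25 for Cdca7l and -5.02 ± 0.20 for Zfp57, the factor that guards methylation at imprinted loci. At 8W Cdca7l had 1 to 8 counts per library, so it passed the filter on low counts only through other ages. A fall of Cdca7l was thus favoured in advance. Hells had 12 to 22 and Zfp57 10 to 20 counts per library at 8W.

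Of 13 genes of base excision and its helpers, which act after the Tet enzymes, 5 fell and 3 rose in 8W against E10.5 (median -0.15, the same as for all genes). Over all genes 42.1% fell and 37.8% rose in this span, so neither count stands above the background. Neil3, a glycosylase of dividing cells, changed by -6.28 ± 0.38, Apex1, the abasic site endonuclease, by -2.22 ± 0.09, and Tdg, the glycosylase that removes oxidised 5-methylcytosine, by -1.87 ± 0.07. Neil3 had 2 to 7 counts per library at 8W and passed the filter on low counts only through other ages, which favoured a fall. Gadd45a, linked to active demethylation, rose by 2.31 ± 0.26 and Neil1, another glycosylase, by 2.05 ± 0.23.

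Enzymes that make or remove 2-oxoglutarate, the cosubstrate of the Tet enzymes, were mostly higher at 8W than at E10.5. Of 12 genes of this list, which also holds partners of the Tet proteins, 8 rose and 4 fell (median 1.91, all genes -0.15). Over all genes 37.8% rose and 42.1% fell. Ogdh, of the citric acid cycle, rose by 4.59 ± 0.12, Idh2, the mitochondrial isocitrate dehydrogenase, by 3.05 ± 0.09 and Idh3b and Idh3g by 2.65 ± 0.09 each. Cxxc4, a partner of Tet2, fell by 2.49 ± 0.17 and Ogt, which modifies Tet proteins, by 0.72 ± 0.09. The Tet genes themselves fell over the same span.

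Of 10 readers of methylated CpG, 7 rose and 2 fell in E18.5 against E10.5 (median 0.44, all genes 0.00), where 32.9% of all genes rose and 30.4% fell. In 8W against E10.5, which shares the E10.5 libraries, 7 rose and 2 fell (median 0.64, all genes -0.15), against 37.8% and 42.1% of all genes. As many fell as rose, 3 each, in 1W against P1. In 8W against E10.5 Zbtb4 rose by 2.44 ± 0.08, Zbtb38 by 1.95 ± 0.08 and Mbd1 by 1.47 ± 0.11, while Mbd4 fell by 2.77 ± 0.18 and Zbtb33 by 1.05 ± 0.09.

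Supply of the methyl donor changed gene by gene. Of 14 genes, 12 were tested, and 7 rose and 3 fell in 8W against E10.5 (median 0.31, all genes -0.15). Over all genes 37.8% rose and 42.1% fell in this span. Gnmt, glycine N-methyltransferase, rose by 3.52 ± 0.67, Mtr, methionine synthase, rose by 1.49 ± 0.09, and Ahcy, which clears the product that inhibits methyltransferases, fell by 1.51 ± 0.12. Gnmt had only 34 to 36 counts per library at 8W and 4 to 7 at 2W, so its rise rests on few counts. Of 6 proteins that bind unmethylated CpG, 3 rose and 2 fell, with 1.20 ± 0.09 for Cxxc1 and -1.83 ± 0.12 for Fbxl19. These counts lie near the shares of all genes and are not results about the 6 genes.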

How the data were processed

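Poly(A)-selected RNA of 30 mouse heart libraries (10 ages, 3 each) was analysed from the 1 gene table that the authors deposited, which holds expected counts. Per the submitters' processing notes, the builds were GRCm38 and mm10 and the tools included STAR 2.5.3a and fastp 0.18.0. For the counting step, the tool, annotation and strandedness were not given in the sources used here, and overlapping antisense genes cannot be separated. Of the values, 6.9% were not whole (tolerance 1e-06), and all were rounded before testing. Symbols, positions and merged exon lengths came from GENCODE M21 by gene identifier. Of all counts, 0.23% belonged to genes with no symbol. The labels name no molecular identifiers, so counts are of reads after PCR.

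Tests used edgeR 4.0.16 (R 4.3.3): filterByExpr (19280 of 48820 genes kept), TMM scaling, and robust quasi-likelihood F tests with Benjamini-Hochberg adjustment over all genes. One fit held all 30 libraries as 10 age means, with 20 residual degrees of freedom. The contrasts were the 9 steps between neighbouring ages, 3 long spans and all ages together. A gene was called at an adjusted p below 0.05. A standard error is the log2 change over the root of its F value. Shares within a library were tested with 100000 permutations of the age labels, with F as the statistic and adjustment over the 5 values. Profiles were compared among genes of at least 5 CPM on average. Log2 levels used a prior count of 2. The 7 genes and the 16 lists (9 of related genes and 7 of cell type markers) were chosen with earlier results of these data known. Named were all 7 genes, of each list up to 4 called members with the largest changes, and the 3 nearest profiles per gene. Uhrf2, Tdg, Ogt, Cxxc4 and Zbtb33 were added where outside that rule, after their values were seen. Sex was read from Xist (at least 50 CPM) and 4 Y genes (sum of at least 10 CPM). Libraries with both were coded 0.5 in the term for sex. No 2 libraries held identical values.

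The alternatives were RLE, upper quartile and library size scaling, no filter and a filter of 1 CPM in 3 libraries, removal of 37 mitochondrial and 11 globin genes, DESeq2 1.42.0, a replicate block, a sex term, only the 6 libraries compared, and omission of each library in turn, and for shares also exon length and medians. The fit was tested on simulated data. Figures were drawn with matplotlib 3.10.9 in Python 3.11.15.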

Additional observations from a re-analysis of the deposited data

How the results depend on the processing

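Of 84 values (7 genes in 12 comparisons), 50 stayed on the same side of the threshold under all 40 alternatives. Of 3633 values under the alternatives, 3555 stayed on the same side of the threshold, 22 lost the call, 55 gained it with the same sign and 1 gained it with the opposite sign. With library size alone, Tet2 in 2W against 1W changed by -0.27 (adjusted p = 0.05), against 0.02 with TMM. Some values called under neither scaling also changed sign with the scaling, such as Dnmt3a in 2W against 1W (-0.14 with library size alone, 0.14 with TMM). With library size alone, the number of the 7 genes called was 3 in E16.5 against E14.5, where TMM gave 1. It was 5 in 2W against 1W and 2 in E18.5 against E10.5. With upper quartile factors 2 were called in E16.5 against E14.5 and 2 in 2W against 1W. With a filter of 1 CPM in 3 libraries it was 2 in 2W against 1W. With only the 6 libraries of a comparison it was 6 in E14.5 against E12.5 (6206 of all genes called, against 3527), 3 in E16.5 against E14.5, 5 in E18.5 against E16.5, 5 in P1 against E18.5, with 3 for 4W against 2W. By the median correlation of deviations, replicate numbers showed little pairing, with 0.008 over 135 pairs with the same number and -0.007 over 270 others. However, 19 of 30 libraries correlated best with their own number, out of 3 numbers. Of the pairs with the same number, 7 had a correlation above 0.1, so a weak pairing remains possible. With the replicate block, 2 genes were called in E16.5 against E14.5 and 2 in 2W against 1W, and the other counts moved by less than 1.5 times. Leaving out 1 library gave 1 to 4 genes called in E14.5 against E12.5 (2221 to 4578 of all genes), 1 to 2 in E16.5 against E14.5, 1 to 2 in E18.5 against E16.5 (3107 to 5624 of all genes), 2 to 5 in P1 against E18.5, with 1 to 2 for 2W against 1W. The shares and the Dnmt1 to Uhrf1 ratio differed across ages under every alternative run, with p up to 0.00345 for Tet2 when 1 library was left out. The causes of these moves were not tested. The 3 libraries per age and counts of 32 to 472 limited the precision for Dnmt3b.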

Other observations

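Germline genes that are known to be silenced by promoter methylation in somatic cells were scarcely detected, apart from Tdrkh. Of 14 such genes, 4 passed the filter on low counts, and Tex101 had 0 counts in the libraries of E10.5 and of 8W. In 8W against E10.5, 3 of the 4 fell and none rose, where 42.1% of all genes fell and 37.8% rose. In 8W libraries Ddx4, Slc25a31 and Tdrd1 had at most 8 counts, so they passed the filter only through ages where they were higher. A fall was thus favoured in advance, and the count is not a result about these genes. The sum over the 4 tested genes was 6.20 ± 1.15 CPM at 8W and 8.36 ± 0.66 CPM at E10.5. At 8W Tdrkh alone averaged 5.89 ± 1.19 CPM, so the sum there mostly describes Tdrkh. Tdrd1, a Tudor protein of the piRNA pathway, had 0 counts in each library at 8W, against 51 to 56 counts at E10.5. Ddx4, the germ cell helicase Vasa, averaged 0.216 ± 0.09 CPM at 8W and 1.99 ± 0.43 CPM at E10.5 (SD, n = 3 each), a log2 change of -3.17 ± 0.47. Dazl, another gene of germ cells, was not tested and stood at 0.064 CPM at 8W and 0.087 CPM at E10.5.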
